A study of Mus musculus with 4 samples.

Results

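The BCL2 family genes Bcl2, Bcl2l1, Mcl1, Bcl2l11, Pmaip1 and Bbc3 were examined in mouse EML cells carrying either of 2 mutants of the receptor tyrosine kinase KIT. Their members in the table were the probe sets whose single platform gene symbol is one of these 6 names. They were 6 of the 6404 genes with a value, and 14 of the 10861 probe sets. Bcl2 had 5 probe sets, Bcl2l11 had 4, Bcl2l1 had 2, and Mcl1, Pmaip1 and Bbc3 had 1 each.

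EML is a mouse lymphohematopoietic progenitor line grown in stem cell factor (SCF), the ligand of KIT. The groups were D816V cells with SCF, D816V cells without SCF, Del417-419insY cells with SCF and Del417-419insY cells without SCF, with 1 array each. D816V alters the kinase domain of KIT and Del417-419insY its extracellular part. SCF was given at 250 ng/mL for 48 h, and how long the cells without SCF had been cultured is not stated in the sources. Per the labels' protocols, all 4 cultures came from cells transduced with retroviral KIT constructs and selected with geneticin. Cells with KIT mutants were then grown without growth factor to obtain autonomous populations and sorted for expression of KIT. Each line was thus 1 transduced population that had already survived without SCF, and no array of EML cells without a KIT mutant was analysed here. The species of the KIT constructs is not stated in the sources.

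The BCL2 family governs the mitochondrial pathway of apoptosis. Survival members such as BCL2, BCL-XL (encoded by Bcl2l1) and MCL1 bind and hold in check the pore-forming effectors BAX and BAK and the death-promoting BH3-only proteins. BH3-only proteins, among them BIM (Bcl2l11), NOXA (Pmaip1) and PUMA (Bbc3), bind the survival proteins or act on the effectors directly. In mast cells and blood progenitors, KIT signalling through PI3K and AKT is known to keep FOXO transcription factors, activators of Bcl2l11 and Bbc3, out of the nucleus. STAT5 is a known activator of Bcl2l1.

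Values are log2 levels relative to a zero that was set separately for each probe set by a step that no source states. Differences between arrays can therefore be read, while levels of 2 genes cannot be set against each other, nor can presence or absence of a transcript. Array medians were -0.20 and -0.10 in D816V cells with and without SCF, against -0.05 and -0.02 in Del417-419insY cells. The value of a gene is the mean of its probe sets, and 6404 genes were fitted together. With 1 array per group no single difference has a replicate check. The only test was limma's moderated test of the additive model of genotype and SCF over the 4 arrays, with Benjamini-Hochberg adjustment over all 6404 genes and a threshold of 0.05, two-sided. It takes the difference between the SCF responses of the lines as the error, with 1 degree of freedom. This error is moderated towards a prior from all genes with 4.10 degrees of freedom, which weighs more. The p-values therefore cover neither repeat cultures nor repeat transductions.

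The markers that define EML cells as progenitors could not be checked for presence on this scale, and 5 of 9 genes of the progenitor list were measured. Lineage markers were counted by the limma test for genotype, which called 17.9% of all genes higher in D816V cells and 24.7% lower. By this test 7 of 9 measured mast cell genes were higher and 1, Kit, was lower in D816V cells. The median of the differences of that list, each taken within a gene, was 1.54. Of the 5 progenitor genes 2 were higher and 3 lower, and Kit, which is on both lists, was again among the lower ones. Of 6 erythroid genes 1 was higher and 4 were lower, and of 4 megakaryocyte genes 1 and 3. Of 4 granulocyte and monocyte genes 1 was higher and 1 lower, and of 2 lymphoid genes 1 and 1. Neither of the 2 fibroblast and endothelial genes passed. The part of these lineage differences in the results for the BCL2 family was not tested. In RNA of whole cultures, fewer cells of a type and less RNA per cell cannot be told apart.

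RefSeq promoters (build GRCm38.p6) were at hand for 5 of the 6 genes, with 10 start sites in all. The following upstream stretches, each of the 250 bases before an annotated start, show the 2 genes that differed between the mutants and 2 BH3-only genes whose promoters hold the FOXO core. Capitals mark GTAAACA or its reverse complement TGTTTAC. For Bcl2l1 the farthest upstream of its 3 starts is shown.
Bcl2, chr1:106714291-106714540, minus strand: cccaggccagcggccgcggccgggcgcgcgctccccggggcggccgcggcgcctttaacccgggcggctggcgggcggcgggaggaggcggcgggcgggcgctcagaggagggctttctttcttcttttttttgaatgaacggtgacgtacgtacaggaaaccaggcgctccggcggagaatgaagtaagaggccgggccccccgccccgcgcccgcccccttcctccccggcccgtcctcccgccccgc
Bcl2l1, chr2:152831729-152831978, minus strand: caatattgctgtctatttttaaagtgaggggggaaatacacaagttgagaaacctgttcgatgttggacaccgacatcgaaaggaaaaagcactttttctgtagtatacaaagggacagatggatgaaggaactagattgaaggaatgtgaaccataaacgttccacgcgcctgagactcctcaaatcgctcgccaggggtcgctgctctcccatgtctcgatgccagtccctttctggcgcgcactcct
Bcl2l11, chr2:128125788-128126037, plus strand: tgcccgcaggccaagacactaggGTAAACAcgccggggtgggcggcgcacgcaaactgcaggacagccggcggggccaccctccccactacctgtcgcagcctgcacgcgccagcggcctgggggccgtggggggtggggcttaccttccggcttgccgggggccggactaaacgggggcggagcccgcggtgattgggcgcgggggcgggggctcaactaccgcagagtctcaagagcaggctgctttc
Bbc3, chr7:16310011-16310260, plus strand: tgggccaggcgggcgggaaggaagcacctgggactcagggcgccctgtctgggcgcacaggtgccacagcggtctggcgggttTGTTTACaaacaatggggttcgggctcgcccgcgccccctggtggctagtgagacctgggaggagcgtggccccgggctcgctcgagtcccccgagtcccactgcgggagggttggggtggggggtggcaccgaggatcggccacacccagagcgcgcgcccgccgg

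The FOXO core occurred once in 1 of the 2 Bcl2l11 windows, beginning 227 bases before the start, and once in 1 of the 3 Bbc3 windows, beginning 167 bases before it. It was in 3.17% of all 32851 promoter windows of this length on either strand. The STAT motif TTCNNNGAA, which reads the same on both strands, was found in none of the 10 windows and in 7.02% of all windows. The E-box CACGTG, bound by MITF and MYC among others, was in 1 Bbc3 window and in 6.02% of all windows. These matches describe letters in a window only. The 250 bases shown for Bcl2 hold 74.8% G and C, against 47.6% for those of Bcl2l1. The stretches shown for the 2 survival genes that were higher in D816V cells thus differ in base composition.

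The comparison of the mutants asks how expression differs between cells driven by a kinase domain mutant and by an extracellular mutant of KIT. Bcl2 and Bcl2l1 were higher in D816V cells, both with and without SCF. Bcl2l1 differed by more than 2-fold under every scaling tried, while the size of the Bcl2 difference depended on scaling and probe set. Mcl1, the third survival gene, and the BH3-only genes Bcl2l11, Pmaip1 and Bbc3 did not pass the test. The test called 2 of the 6 members higher and none lower, where it called 17.9% of all genes higher and 24.7% lower. The members had been proposed with these differences known, so this count is a description.

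Bcl2, the founding survival gene of the family, stood at 1.66 with SCF and 1.90 without SCF in D816V cells, against 0.36 with SCF and 0.83 without SCF in Del417-419insY cells. Both D816V arrays lay above both Del417-419insY arrays. The mean difference was 1.18 on the log2 scale (SE 0.13, limma adjusted p = 0.00281), or 2.27-fold. The single-array differences were 1.30 with SCF and 1.06 without. They were 1.02 and 0.65 after quantile normalization, 0.66 and 0.44 after cyclic loess and 1.16 and 0.79 with the highest-mean probe set, so a 2-fold difference without SCF was not kept there.

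All 5 Bcl2 probe sets showed this order on every array. They derive from 5 different source sequences, so they are separate readings of the transcript on the same 4 RNA samples. Their mean differences ran from 0.97 for 1440770_at to 1.72 for 1443837_x_at, a probe set whose suffix marks probes that may also match other transcripts. The other 3 lay at 1.01, 1.11 and 1.09, so without 1443837_x_at the probe sets were close together. Left out after the data were seen, it gave a mean difference of 1.05 (limma adjusted p = 0.0039), with 1.16 with SCF and 0.94 without. In a fit on single probe sets all 5 passed, with limma adjusted p from 0.000348 to 0.00407.

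Bcl2l1, which encodes the survival protein BCL-XL and, by splicing, the shorter death-promoting BCL-XS, stood at 1.20 with SCF and 1.02 without SCF in D816V cells. In Del417-419insY cells it stood at -0.06 with SCF and -0.19 without SCF. The groups did not overlap, and the mean difference was 1.23 (SE 0.11, limma adjusted p = 0.00189), or 2.35-fold. The single-array differences of 1.25 with SCF and 1.21 without were nearly equal. Its 2 probe sets were designed from 1 source sequence and gave 1.07 for 1420887_a_at and 1.39 for 1420888_at. Which splice form each reads was not examined. As deposited, the gene means of Bcl2 and Bcl2l1 were 2-fold or more higher with SCF and without it, as were those of 5.15% of all genes. For Bcl2 without SCF, 3 of 5 probe sets were under 2-fold (0.87, 0.98 and 0.79), whereas both Bcl2l1 probe sets were over it in both conditions. Among 6404 genes Bcl2l1 ranked 299th and Bcl2 316th from the highest mean difference.

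Mcl1 encodes a short-lived survival protein that is largely controlled after transcription. It stood at -0.09 with SCF and 0.02 without SCF in D816V cells, against -0.24 and -0.20 in Del417-419insY cells. The D816V arrays were again both the higher ones, but the mean difference of 0.19 did not pass (SE 0.12, limma adjusted p = 0.229). As deposited, both D816V gene means lay above both Del417-419insY ones for all 3 survival members and none of the 3 BH3-only members. This order held for 29.1% of all genes. The split depended on scaling. After quantile normalization and cyclic loess, both D816V arrays also lay above both Del417-419insY arrays for Bcl2l11 and Pmaip1. After median centring they did so for Bcl2l11.

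**Figure D1:**
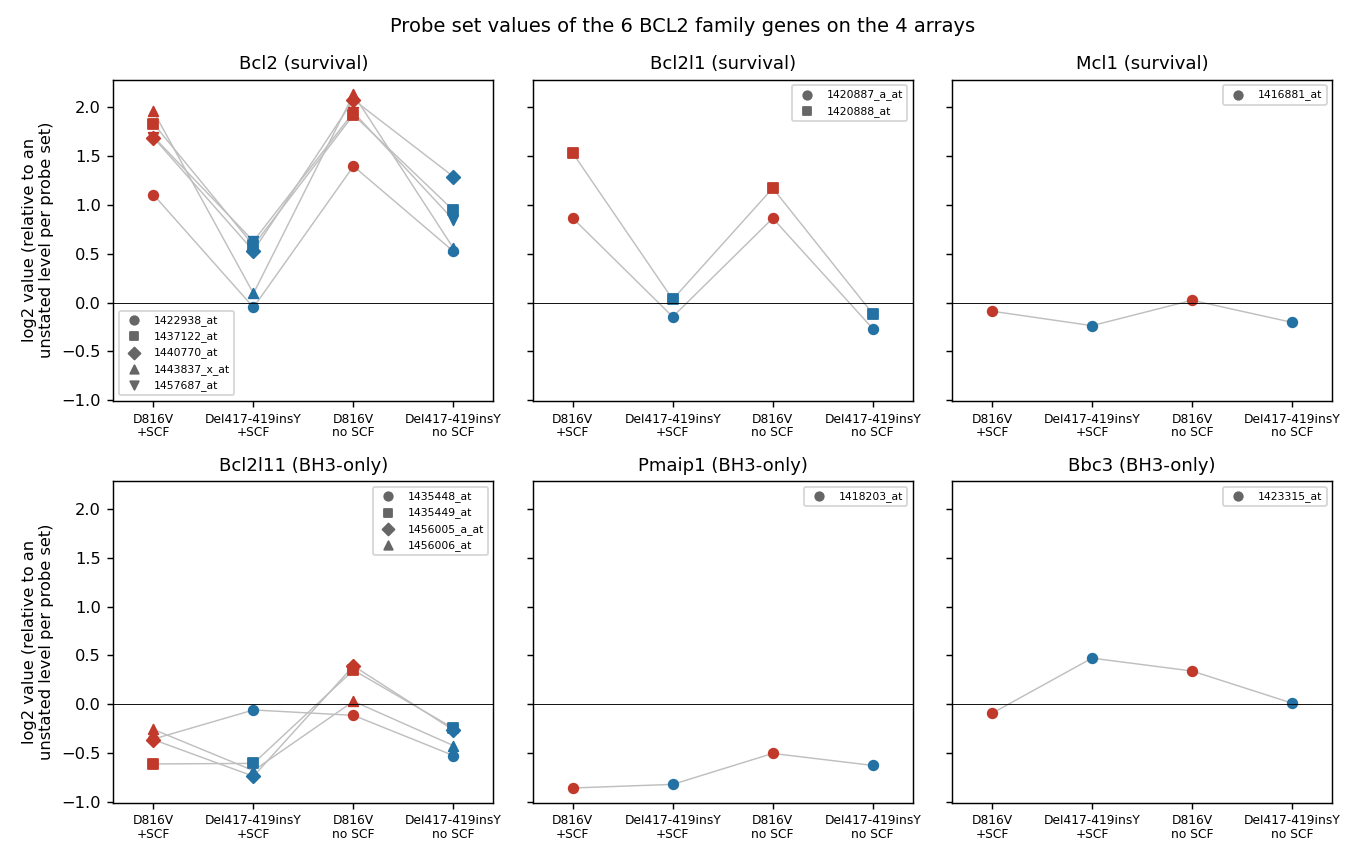
Log2 value of each of the 14 probe sets on the 4 arrays, in 1 panel per gene; red points are D816V arrays and blue points Del417-419insY arrays, a marker shape and grey line join 1 probe set, and there are no replicates. The D816V points of Bcl2 and Bcl2l1 lie above the Del417-419insY points of the same probe set, while the 4 probe sets of Bcl2l11 follow different courses.

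Bcl2l11 encodes BIM, the BH3-only protein that blood cells use when a growth factor is withdrawn. It stood at -0.40 with SCF and 0.17 without SCF in D816V cells, against -0.52 with SCF and -0.36 without SCF in Del417-419insY cells. The D816V array without SCF was the highest, and the D816V array with SCF lay between the 2 Del417-419insY arrays. The mean difference was 0.33 (SE 0.15, limma adjusted p = 0.122). It was 0.53 without SCF and 0.12 with SCF.

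The 4 Bcl2l11 probe sets come from 2 source sequences, and they did not give 1 answer. Both probe sets of one source passed in the fit on single probe sets, with 0.52 for 1456005_a_at (limma adjusted p = 0.0298) and 0.44 for 1456006_at (limma adjusted p = 0.0383). Those of the other source gave 0.29 for 1435449_at (limma adjusted p = 0.21) and 0.06 for 1435448_at (limma adjusted p = 0.824). Only 1456006_at had both D816V arrays above both Del417-419insY arrays. Bcl2l11 is spliced into several forms, and which of them each probe set reads was not examined. The gene passed the test under 4 alternatives, with limma adjusted p of 0.0227 after quantile normalization, 0.0164 after cyclic loess, 0.026 after median centring and 0.023 when the probe set of highest mean stood for the gene.

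Pmaip1 encodes NOXA, which binds MCL1 in preference to BCL2. It stood at -0.86 with SCF and -0.50 without SCF in D816V cells, against -0.82 and -0.63 in Del417-419insY cells. The lines overlapped and the mean difference was 0.04 (SE 0.12, limma adjusted p = 0.787). After cyclic loess it was 0.45 and passed (limma adjusted p = 0.0238).

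Bbc3 encodes PUMA, which binds all of the survival proteins and is a target of p53 and FOXO. It stood at -0.09 with SCF and 0.34 without SCF in D816V cells, against 0.47 with SCF and 0.01 without SCF in Del417-419insY cells. The single-array differences had opposite signs, -0.57 with SCF and 0.33 without, and their mean was -0.12 (SE 0.23, limma adjusted p = 0.694). Its SE was the widest of the 6 genes because the model takes that disagreement for error.

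**Figure D2:**
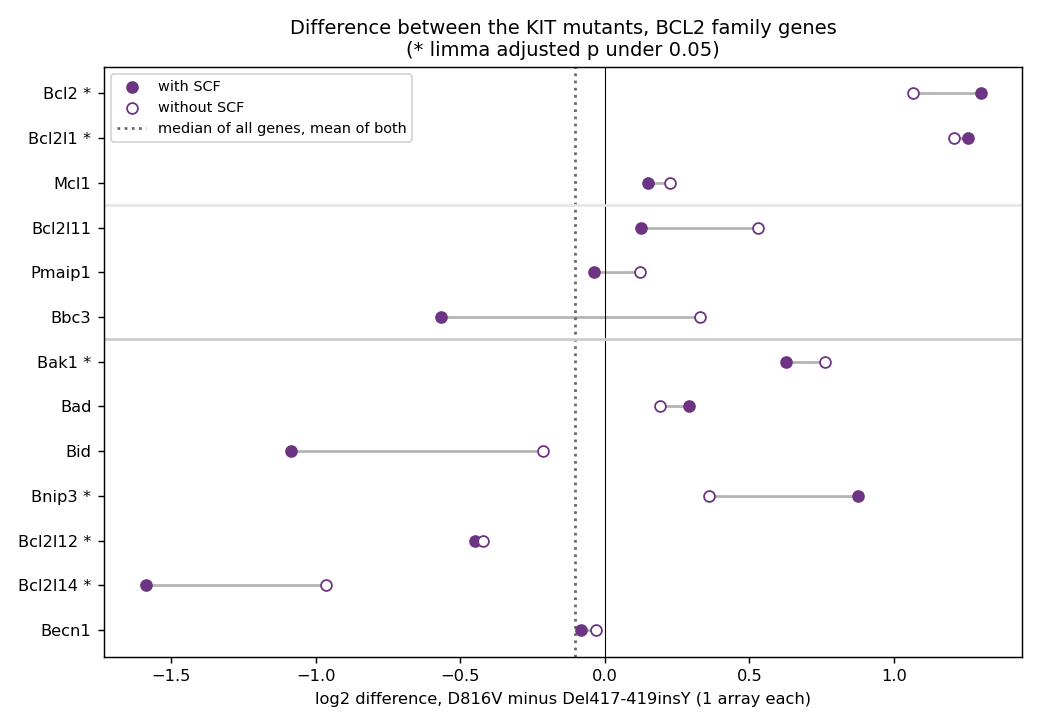
Log2 difference, D816V minus Del417-419insY, with SCF (filled) and without SCF (open) for the 6 members and the 7 other BCL2 family genes measured; the dotted line is the median of all genes, -0.10, and a star marks limma adjusted p under 0.05. As deposited, Bcl2 and Bcl2l1 lie above 1 in both conditions, and the points of Bbc3 lie on either side of 0.

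Set side by side, the 3 survival members had a mean difference of 0.87 and the 3 BH3-only members one of 0.08, where the median of all genes was -0.10. With SCF the survival mean was 0.90 and the BH3-only mean -0.16, so the gap was 1.06. Without SCF they were 0.83 and 0.33, a gap of 0.51. The size of these gaps depended on scaling. With and without SCF they were 0.79 and 0.28 after quantile normalization and 0.59 and 0.18 after cyclic loess. Median centring left them unchanged. The sign of the BH3-only mean with SCF depended on scaling, at 0.05 after quantile normalization and 0.11 after cyclic loess. Mcl1 contributed little to the survival mean, which rests on Bcl2 and Bcl2l1. These means are given without a test, since the members were chosen with results known.

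Scaling changed the size of several of these differences. The median of all genes moved from -0.10 as deposited to 0.04 after cyclic loess and 0.02 after median centring, and the split of calls went with it, with 1147 genes higher and 1579 lower as deposited. These counts were 1720 and 1302 with centred arrays, 1526 and 1387 with quantile normalization and 1628 and 1263 with cyclic loess. Relative to that median, Bcl2l1 was higher by 1.33 as deposited and by 1.09 after cyclic loess. Bcl2 was higher by 1.29 as deposited but by 0.50 after cyclic loess, where its own difference was 0.55 and still passed (limma adjusted p = 0.0122). Cyclic loess follows the mean value of a probe set over arrays, which on this relative scale is not its brightness. Bbc3 lay from -0.15 to -0.01 relative to the median under the 4 scalings.

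**Figure D3:**
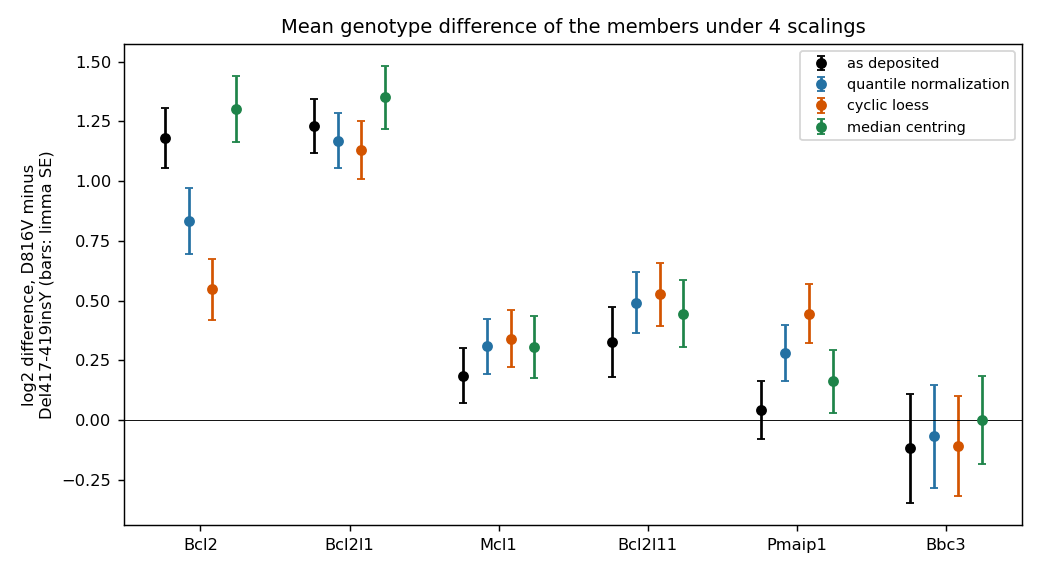
Mean log2 difference, D816V minus Del417-419insY, of the 6 members as deposited and after 3 other scalings; bars are the limma SE from the fit over 4 arrays. Bcl2l1 stays above 1 under all 4, Bcl2 ranges from 0.55 to 1.30, and Mcl1, Bcl2l11 and Pmaip1 are lowest as deposited.

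Arrays with SCF were then set against those without it, which asks what added ligand does in each line. No member passed the test for SCF, where limma called 0 of 6404 genes (0%) and 1186, or 18.5%, had an unadjusted p under 0.05. Bcl2 was the 1 member with an unadjusted p under that value. None of the members differed 2-fold with SCF in either line, as 1.64% of all genes did in D816V cells and 0.874% in Del417-419insY cells. The values below are therefore descriptions of single pairs of arrays.

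Bcl2 was lower with SCF in both lines, at -0.24 in D816V cells and -0.47 in Del417-419insY cells, and all 5 probe sets had this direction in both. The mean was -0.36 (SE 0.13, limma adjusted p = 0.239). Bcl2l1 went the other way, with 0.18 in D816V cells and 0.13 in Del417-419insY cells (mean 0.16, SE 0.11, limma adjusted p = 0.491). The 2 survival genes that separated the mutants thus had SCF differences of opposite sign. Mcl1 was nearly level, at -0.11 in D816V cells and -0.03 in Del417-419insY cells.

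The BH3-only members stood lower with SCF in D816V cells, by amounts that depended on scaling. Bcl2l11 was at -0.56 there, against -0.16 in Del417-419insY cells (mean -0.36, SE 0.15, limma adjusted p = 0.278). Its probe sets ranged from -0.96 to -0.24 in D816V cells, all below 0, and from -0.47 to 0.47 in Del417-419insY cells, where 1435448_at was the exception above 0. Pmaip1 was at -0.35 in D816V cells and -0.19 in Del417-419insY cells (limma adjusted p = 0.299). Its response in D816V cells was -0.14 after quantile normalization and -0.08 after cyclic loess. Bcl2, Mcl1, Bcl2l11 and Pmaip1 were thus lower with SCF in both lines, 4 of the 6 members, where 33.2% of all genes were.

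Bbc3 was lower with SCF in D816V cells, at -0.43, and higher in Del417-419insY cells, at 0.46. It was the 1 member with SCF responses of opposite sign, which 34.3% of all genes had. Its response differed between the lines by -0.89, the widest such gap among the members, followed by Bcl2l11 at -0.41, Bcl2 at 0.24, Pmaip1 at -0.16, Mcl1 at -0.08 and Bcl2l1 at 0.05. A difference between responses leaves no error to test it against. The mean SCF response of the BH3-only members was -0.45 in D816V cells and 0.04 in Del417-419insY cells, and that of the survival members -0.06 and -0.12. The median over all genes was -0.05 in D816V cells and 0.03 in Del417-419insY cells.

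**Figure D4:**
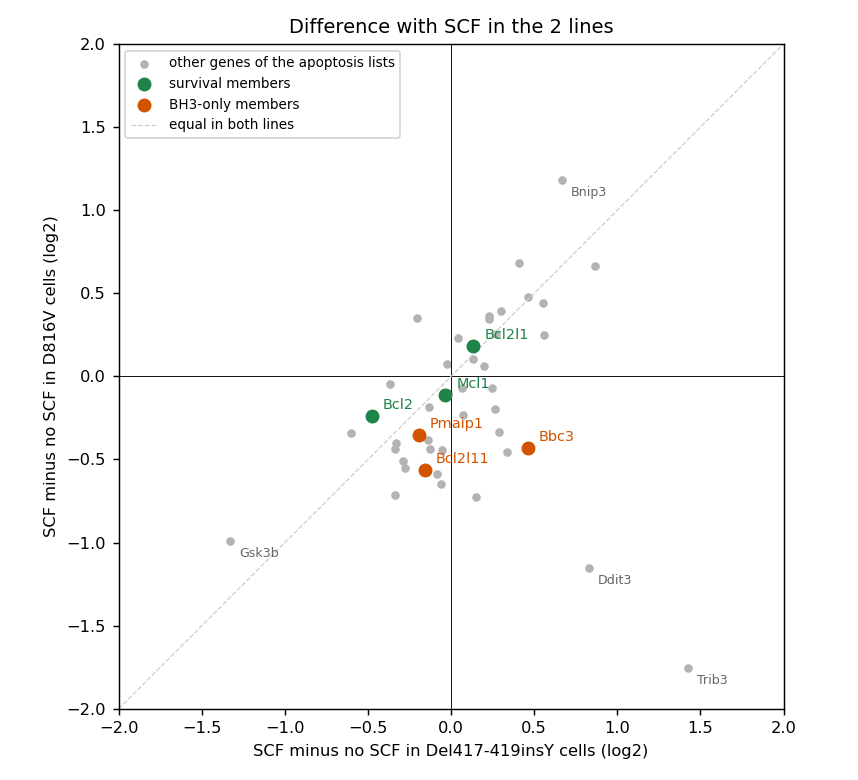
Log2 difference, SCF minus no SCF, in D816V cells (y axis) and Del417-419insY cells (x axis) for the survival members (green), the BH3-only members (orange) and the other measured genes of the apoptosis lists (grey); each point is 1 gene from 4 single arrays. The 3 BH3-only members lie below 0 in D816V cells, and Bbc3 lies right of 0 in Del417-419insY cells.

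Among the other BCL2 family genes, 7 of 21 were measured, and 2 passed as higher and 2 as lower in D816V cells. All apoptosis lists together had 9 genes higher and 9 lower of 39 measured. The test called 17.9% of all genes higher and 24.7% lower, so these counts are descriptions. None of the other survival genes listed had a value here. Bak1, which encodes the effector BAK, was higher by 0.69 (limma adjusted p = 0.0107), with 0.23 and 0.29 in D816V cells with and without SCF, against -0.40 and -0.47 in Del417-419insY cells. A death effector was thus higher alongside the 2 survival genes. Bnip3, a mitochondrial protein of the family induced by low oxygen, was higher by 0.62 (limma adjusted p = 0.0339), and with SCF it was higher by 1.18 in D816V cells and 0.67 in Del417-419insY cells. Bcl2l14 was lower, at -1.28 (limma adjusted p = 0.00637) and Bcl2l12 at -0.44 (limma adjusted p = 0.0341). The BH3-only genes Bid and Bad had mean differences of -0.65 and 0.24 and did not pass. For Bid the single-array differences were -1.09 with SCF and -0.21 without. Its SCF responses were -0.72 in D816V cells and 0.15 in Del417-419insY cells.

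Downstream of mitochondria, 9 of 16 genes of caspases and their regulators were measured, with 2 higher, 2 lower and a median of 0.22. Birc3, which encodes the inhibitor of apoptosis cIAP2, and Endog, a mitochondrial nuclease, were higher by 0.86 and 0.85. Xiap, a direct caspase inhibitor, and Casp2 were lower, at -0.58 and -0.65. In the death receptor pathway 6 of 10 genes were measured, with 2 higher, 2 lower and a median of -0.28. The ligand gene Tnfsf10 (TRAIL) and the adaptor gene Tradd were higher by 0.86 and 0.43. The TNF receptor gene Tnfrsf1a and Cflar, whose product FLIP blocks caspase 8, were lower, at -1.13 and -1.03. Both lists had calls on both sides. Over all genes the test called 17.9% higher and 24.7% lower, and the median was -0.10.

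Of 22 genes listed as regulators of the members, 17 were measured, with 3 higher, 3 lower and a median of -0.04. Of all genes 17.9% were called higher and 24.7% lower. The kinase genes Pim1 and Pim2, whose products phosphorylate and inactivate BAD, were higher by 2.85 and 1.90 (limma adjusted p = 0.000266 and 0.000601). Mitf, a transcription factor known to activate Bcl2 in melanocytes, was higher by 0.50 (limma adjusted p = 0.0416). Stat5a, whose product is a known activator of Bcl2l1, was lower, at -1.02 (limma adjusted p = 0.0179). Stat5b was at -0.42 and did not pass (limma adjusted p = 0.0755). The activity of STAT5 was not measured, and its part in the Bcl2l1 difference was not tested. Foxo1 was lower, at -0.57, and Foxo3, the FOXO gene most often tied to Bcl2l11, was at -0.04 and did not pass. Mapk8, which encodes the kinase JNK1 that phosphorylates BIM, was lower, at -0.93. With SCF, the kinase gene Gsk3b stood at -0.99 in D816V cells and -1.33 in Del417-419insY cells. Ddit3 (CHOP), an activator of Bcl2l11 under endoplasmic reticulum stress, stood at -1.15 with SCF in D816V cells and 0.83 in Del417-419insY cells, and the stress gene Trib3 at -1.75 and 1.43. Ddit3 and Trib3 thus had the signs of Bbc3 in each line, as did Stat5a, Stat5b and Foxo3 of this list. The medians of the list were -0.338 in D816V cells and 0.225 in Del417-419insY cells. Of all genes, 34.3% had SCF responses of opposite sign in the lines, and a link to Bbc3 was not tested. Of the 18 genes of these lists that passed for genotype, 8 lost the call under at least 1 alternative: Bnip3, Bcl2l12, Casp2, Xiap, Birc3, Tradd, Foxo1 and Mitf.

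The genes whose values over the 4 arrays lay closest to each member, by Euclidean distance after centring each gene on its own mean, were found among all 6404 genes. Closest to Bcl2 were Mospd2, Vwa5a and Hcfc2, at 0.099, 0.213 and 0.219 on the log2 scale. Closest to Bcl2l1 were Ncf4, Nin and Dennd11, at 0.046, 0.050 and 0.066. Closest to Bbc3 were Frmpd1, Zc3hav1 and Lrrc8d, at 0.079, 0.089 and 0.090, and closest to Bcl2l11 were Nr4a2, Tmem156 and Mier3, at 0.069, 0.074 and 0.077. Mcl1 and Pmaip1 varied little, and their nearest genes Rab38, Mlkl and Sdcbp, and Dph2, Ociad1 and Pa2g4, lay within 0.020 and 0.038.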

How the data were processed

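RNA of 4 EML cultures was measured on 1 Affymetrix mouse array each, per the labels and the design text. The deposited log2 values were made by the authors with RMA, per the submitters' processing notes (version not given in the sources used here), and each probe set is given relative to an unstated level. That they are log2 is inferred from RMA. The table analysed has 10861 of the array's 45101 probe sets, by a filter not given; brightness and detection were not used here.

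Symbols are those of the platform annotation, updated through the gene ID to RefSeq GRCm38.p6 (11 IDs without a match kept theirs). Of the probe sets 9633 had 1 symbol, 264 several and 964 none, and the last 2 kinds were left out. Genes, as the mean of their probe sets, were fitted with limma 3.58.1 in R 4.3.3 (1 residual degree of freedom, prior of 4.10), a step tested on simulated data. The simulated noise was drawn from the fitted prior, so that test checks the code and not the p-values of these arrays. Alternatives were the highest-mean probe set, single probe sets, quantile normalization, cyclic loess, median centring, eBayes with a trend or robust, leaving out the other term and a 25th percentile filter on mean values. Leaving out a Bcl2 probe set was chosen after seeing the data.

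The members and gene lists were chosen with earlier results of these data known. Named were all members and their probe sets, listed apoptosis genes that passed for genotype or differed 2-fold with SCF in either line, and the 3 nearest genes of each member. Bid, Bad, Foxo3 and Stat5b, which did not pass, were named after their values were seen. Nothing in the labels names repeat cultures.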

Additional observations from a re-analysis of the deposited data

Results flagged for a closer look

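The effects below had opposite signs in the 2 lines or in the 2 conditions. Each rests on single arrays, and none of these differences was tested. The SCF response of Bbc3 was -0.43 in D816V cells and 0.46 in Del417-419insY cells, a difference of -0.89, and the same -0.89 separates its genotype difference with SCF, -0.57, from that without SCF, 0.33. The genotype difference of Pmaip1 was -0.04 with SCF and 0.12 without, a gap of -0.16. Both were above 0 after quantile normalization (0.31 and 0.25), cyclic loess (0.53 and 0.37) and median centring (0.12 and 0.21).

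Within Bcl2l11, probe set 1435448_at had SCF responses of -0.24 in D816V cells and 0.47 in Del417-419insY cells, and genotype differences of -0.30 with SCF and 0.41 without, a gap of -0.71 in both views. Probe set 1435449_at had genotype differences of -0.01 with SCF and 0.60 without (gap -0.60).

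Over the members, the mean SCF response of the BH3-only genes was -0.45 in D816V cells and 0.04 in Del417-419insY cells (gap -0.49), and their mean genotype difference -0.16 with SCF and 0.33 without. The genotype value with SCF turned to 0.05 after quantile normalization and 0.11 after cyclic loess. The mean SCF response in D816V cells was -0.30 after either scaling. In Del417-419insY cells that response turned to -0.07 with the highest-mean probe set. The survival mean minus the BH3-only mean gave SCF responses of 0.39 in D816V cells and -0.16 in Del417-419insY cells, a gap of 0.55.

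Among the listed regulators, the SCF responses of Ddit3 were -1.15 in D816V cells and 0.83 in Del417-419insY cells (gap -1.98), and its genotype differences -0.93 with SCF and 1.05 without. Those of Trib3 were -1.75 and 1.43 (gap -3.18), with genotype differences of -1.31 with SCF and 1.87 without.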

How the results depend on the processing

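Bcl2 and Bcl2l1 passed as higher in D816V cells as deposited and under all 10 alternatives, with differences from 0.55 to 1.30 for Bcl2 and from 1.13 to 1.39 for Bcl2l1. Not all of these could change both results. Leaving out the Bcl2 probe set does not touch Bcl2l1. A trend, robust eBayes and leaving out the SCF term change the SE and p, not the difference. Bcl2l11 newly passed at 0.52 with the highest-mean probe set, 0.49 after quantile normalization, 0.53 after cyclic loess and 0.45 after median centring, and Pmaip1 at 0.45 after cyclic loess, which took the members called higher from 2 to 4. Bbc3 moved to 0.0015 after median centring. The survival mean minus the BH3-only mean of the genotype difference, 1.06 with SCF and 0.51 without, was 0.79 and 0.28 after quantile normalization and 0.59 and 0.18 after cyclic loess. The causes were not tested. No member was called for SCF under any alternative run.

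Over all genes, the fit without the SCF term called 690 higher and 913 lower in D816V cells, and single probe sets gave 1627 and 2504. For SCF the counts of higher and lower genes were 41 and 215 with the highest-mean probe set, 23 and 234 for single probe sets, 113 and 143 after centring, 13 and 29 after cyclic loess, 2 and 8 with a trend and 1 and 1 after quantile normalization. The 25th percentile filter gave no value for Pmaip1, which it left out, or for Bcl2l11. Leaving out an array leaves no error to test with, and no signal over background could be examined. No paired analysis by replicate number was possible because the labels give none. The fit itself compares the mutants within each SCF condition, and the fit without the SCF term is its version without that block.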
